A study of Saccharomyces cerevisiae with 44 samples.

Results

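The comparison described here lies within the slow metabolic cycle of budding yeast, Saccharomyces cerevisiae strain CEN.PK122, grown in continuous culture. It sets 8 libraries from late in the long interval between growth bursts (time points 8 to 11 and 20 to 23) against 8 libraries from early in that interval (time points 2 to 5 and 14 to 17). These 16 libraries were taken from the 24 of the slow culture and the 44 of the whole series. The windows were set with the time courses of these same libraries known, so the genes below were selected on the very log2 differences that are printed for them, and these are a description with no test.

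Every library came from a fermentor fed a minimal medium with 1% glucose and a little yeast extract at 30 degrees and pH 3.4, after a batch phase and a starvation of several hours. The slow culture was diluted at 0.045 to 0.05 per hour and sampled every 36 min over 2 cycles, and the fast culture at 0.12 to 0.13 per hour and sampled every 13 min over 2 cycles. No mutation, drug or transgene distinguished the groups, which differed by time and, between cultures, by dilution rate. The labels describe a time series for each condition and name no replicate cultures, so the spread between libraries is a spread between time points, and p-values measure only that.

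Yeast fed a limiting, steady supply of glucose can synchronize into cycles of oxygen consumption, the yeast metabolic cycle. A short burst of respiration goes with induction of ribosome and translation genes; it is followed by mitochondrial biogenesis and, in part of the cells, division, and then by a long charging interval with storage carbohydrate, stress protein and autophagy genes. Cells in that interval are called quiescent-like because they do not divide and are rich in protective proteins. At a slow feed the interval lengthens and the burst stays short.

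Expression was measured by stranded, poly(A)-selected RNA-seq, with external control RNAs (ERCC) added to the total RNA. Levels are given as RPKM (reads per kilobase of gene, scaled to the mapped reads of the library), so each is a share of its library and says nothing of RNA per cell. The early libraries held 7.96 to 12.9 M mapped reads and the late libraries 6.45 to 11.1 M (M, 1e6), worked out from the RPKM worth of 1 read. Of the reads assigned to genes and control RNAs, control RNA made up 1.14% ± 0.093 (SD, n = 8) in the early libraries and 1.13% ± 0.095 (SD, n = 8) in the late ones. Of the 12 libraries of the second cycle, 10 lay nearest to the library at the same position of the first cycle. The exceptions were time point 22, nearest to time point 11 (root mean square log2 distance 0.221, against 0.288 to its own position), and time point 23, nearest to time point 9 (0.222 against 0.293). Both are late libraries, so an exchange of these 2 would leave the late window as it is; the counts without them are given below.

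The label of a quiescent plateau held only in part. Ribosome and DNA replication genes were lower in both windows than in the burst, but ribosome biogenesis genes were not level across the windows. Mitosis genes were higher in the early window than in the late one or the burst. The median level of 137 cytosolic ribosomal protein genes was 153 RPKM early and 226 RPKM late, against 695 RPKM in the burst libraries (time points 12 and 24). For 77 ribosome biogenesis genes the medians were 21.2 and 43.4 RPKM, against 160.7 RPKM in the burst, and for 34 DNA replication genes 27.1 and 28.03 RPKM, against 69.5 RPKM. The 25 mitosis genes went the other way, with a median of 39.5 RPKM early, 16.3 RPKM late and 17.1 RPKM in the burst. The early window was also the less even one: the median within-window SD over genes was 0.217 on the log2 scale early and 0.131 late. Early libraries differ among themselves in division genes and in ribosome biogenesis genes, both described below, and are called early windows here and not a plateau.

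The fit held 5827 genes, those averaging 1 RPKM or more. Of these, 115 (1.97%) were higher and 67 (1.15%) lower in the late windows by at least 2-fold with a limma adjusted p under 0.05. Every one of the 115 and of the 67 had the same sign in both cycles. The call pooled both cycles, so this was nearly fixed in advance and nothing is read from it. Without the 2-fold minimum, 1950 genes (33.5%) were higher and 783 (13.4%) lower. By sign alone, 3826 of the 5827 genes were positive and 2001 negative. The median of all genes was 0.11 on the log2 scale, and centring each library on its own median moved it by -0.12 and the split from 115 and 67 to 71 and 89. Without time points 22 and 23 the counts were 92 and 67. The higher count rested on the first early library of each cycle: it was 72 without time point 2, 75 without time point 14 and 49 without both, where the lower count was 70. Just inside the limit lay RNR2 at 1.00 and ADY2 at -1.02, and just outside it YEF1 at 0.998 and MYO1 at -0.995. The 8 early and 8 late libraries did not overlap for 91 of the 115 and 47 of the 67, against 742 (12.7%) of all genes; since these windows chose the genes, nothing is read from that.

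**Figure D1:**
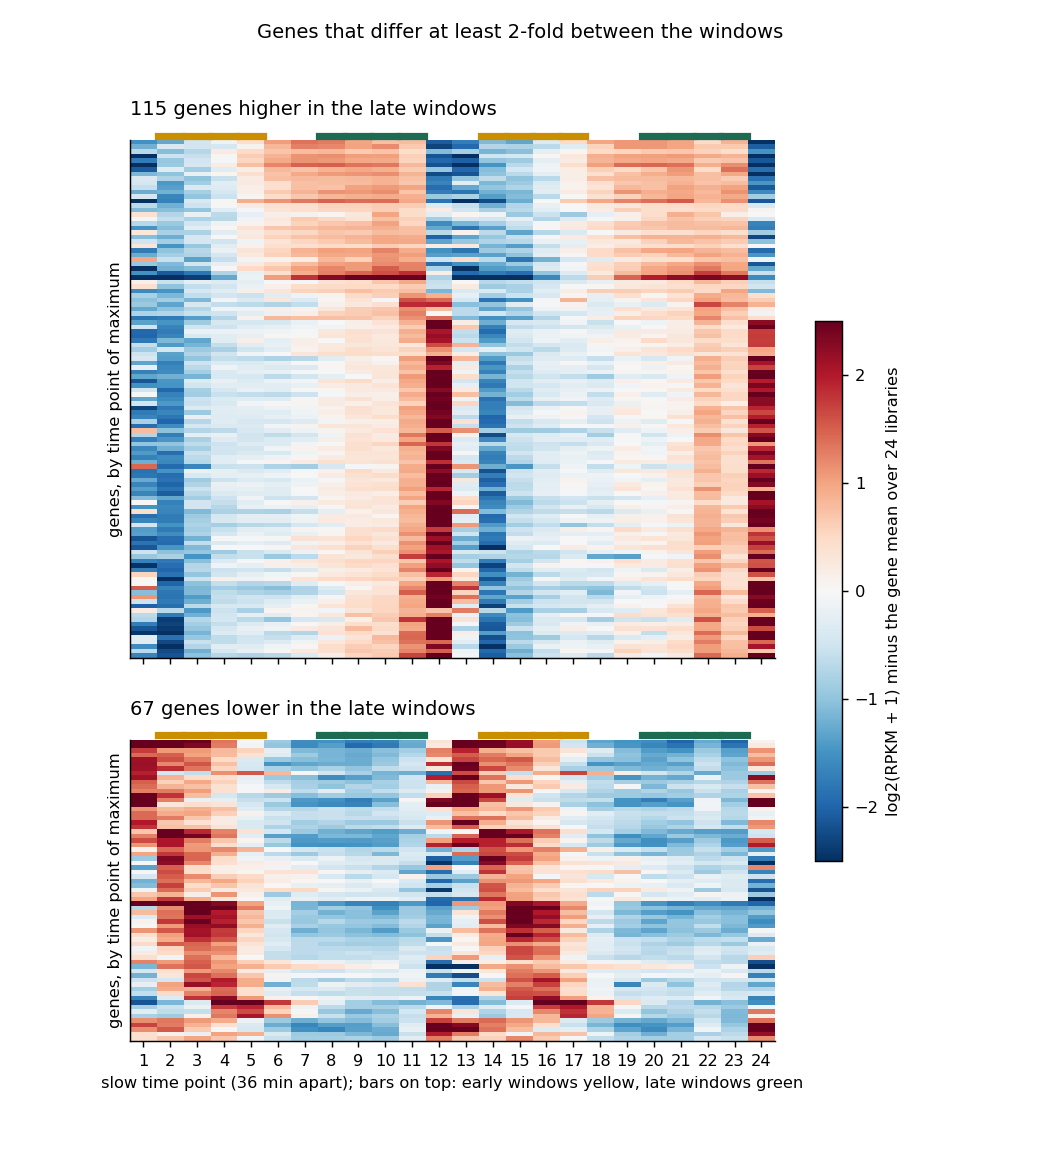
Heat map of the 115 genes higher and 67 genes lower in the late windows over the 24 slow libraries, 1 row per gene, ordered by the time point of the gene's maximum over the mean cycle. Colour is log2(RPKM + 1) minus the gene's mean over the 24 libraries and saturates at the ends of its bar; 75 of the 115 have their maximum at the burst and 38 in time points 8 to 11, while the maxima of the 67 run from the burst to time point 5.

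Genes higher early and lower late included cell cycle genes, which peaked at different early time points; 29 of the 67 were in any of the lists used. In bulk libraries, fewer dividing cells and less RNA per cell cannot be told apart. The maxima of the 67, over the mean of both cycles, fell at the burst in 5, at time point 1 in 20, at time point 2 in 16, at time point 3 in 17, at time point 4 in 5 and at time point 5 in 4. Of 17 genes of G1 cyclins and Start, 5 were lower late by 2-fold (CLN1, PCL1, PCL2, YOX1 and YHP1) and 0 higher, with a list median of -0.35. CLN1, a G1 cyclin, ran from 37.0 to 146 RPKM (median 72.3) in the early libraries and from 11.5 to 19.9 RPKM (median 12.9) in the late ones, a log2 difference of -2.29 ± 0.26 (SE, 8 against 8 libraries). YHP1, a homeobox repressor of early cell cycle promoters, spanned 10.2 to 93.7 RPKM early (median 51.8) and 4.53 to 6.64 RPKM late (median 5.26), a difference of -2.71 ± 0.42. In both genes time points 2 and 14 were the highest of the windows and no late library reached an early one.

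Several mitotic genes peaked at time point 3. Of the 25 listed, 9 were lower late by 2-fold (among them CLB1, CLB2, CDC5, SWI5, HOF1, BUD4, ALK1 and KIN3) and 0 higher. The list median was -0.65, and 24 of 25 had a negative sign, against 2001 of all 5827 genes. CLB1, a B-type cyclin that drives mitosis, was at 43.3, 102, 65.9 and 26.8 RPKM at time points 2 to 5 and at 40.8, 107, 67.6 and 28.1 RPKM at time points 14 to 17. In the late libraries it stayed between 5.04 and 8.09 RPKM, and the difference was -2.87 ± 0.25. SWI5, a transcription factor of late mitosis and early G1, had a median of 96.7 RPKM early (50.2 to 160) and 13.4 RPKM late (11.9 to 15.0), a difference of -2.65 ± 0.21. HOF1, which acts on the bud neck at cytokinesis, gave -3.06 ± 0.27, from 19.1 to 70.5 RPKM early and from 2.45 to 4.58 RPKM late. Their highest libraries were time points 3 and 15, and the windows did not overlap for any of these 3. Outside the naming rule and chosen after its value was seen, CHS2, the chitin synthase of the primary septum, differed by -2.51.

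Genes that separate mother and daughter were also higher early, and the 3 called ones peaked at time point 5. All 13 septum separation genes had a negative sign, against 2001 of all 5827 genes, and a list median of -0.98. Only 3 of the 13 (EGT2, AMN1 and SUN4) were at least 2-fold lower with an adjusted p under 0.05. EGT2, a cell separation protein, was at 14.8, 26.1, 268 and 303 RPKM at time points 2 to 5 and at 15.3, 26.3, 217 and 258 RPKM at time points 14 to 17, and fell to between 14.3 and 28.2 RPKM late. The early libraries thus hold both its low and its high levels, the windows overlap, and the SE of its difference of -1.92 is 0.65. AMN1, a daughter-specific inhibitor of mitotic exit, had early levels of 42.8 to 253 RPKM (median 134) and late levels of 32.7 to 39.2 RPKM (median 37.6), a difference of -1.54 ± 0.37. Without time points 2 and 14, in an alternative added after the data were seen, 9 of the 13 septum genes met the criteria in place of 3, and 11 of the 25 mitosis genes in place of 9.

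Histone genes were falling through the early windows. HHF2, a histone H4 gene, ranged from 94.4 to 696 RPKM early (median 157) and from 80.3 to 102 RPKM late (median 85.5), a difference of -1.17 ± 0.37 with overlapping windows, and of -0.63 without time points 2 and 14. It was the 1 of 10 histone genes past the limit, and the list median was -0.67. The medians over the list went from 1333 RPKM after the burst to 678 RPKM at time point 2 and 146 RPKM at time point 8. TUB1, alpha-tubulin and a reference gene here, was at 77.0 to 239 RPKM early and 56.2 to 72.5 RPKM late (-1.06 ± 0.21), whereas actin, ACT1, had medians of 859 and 860 RPKM and a difference of 0.006 ± 0.054.

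**Figure D2:**
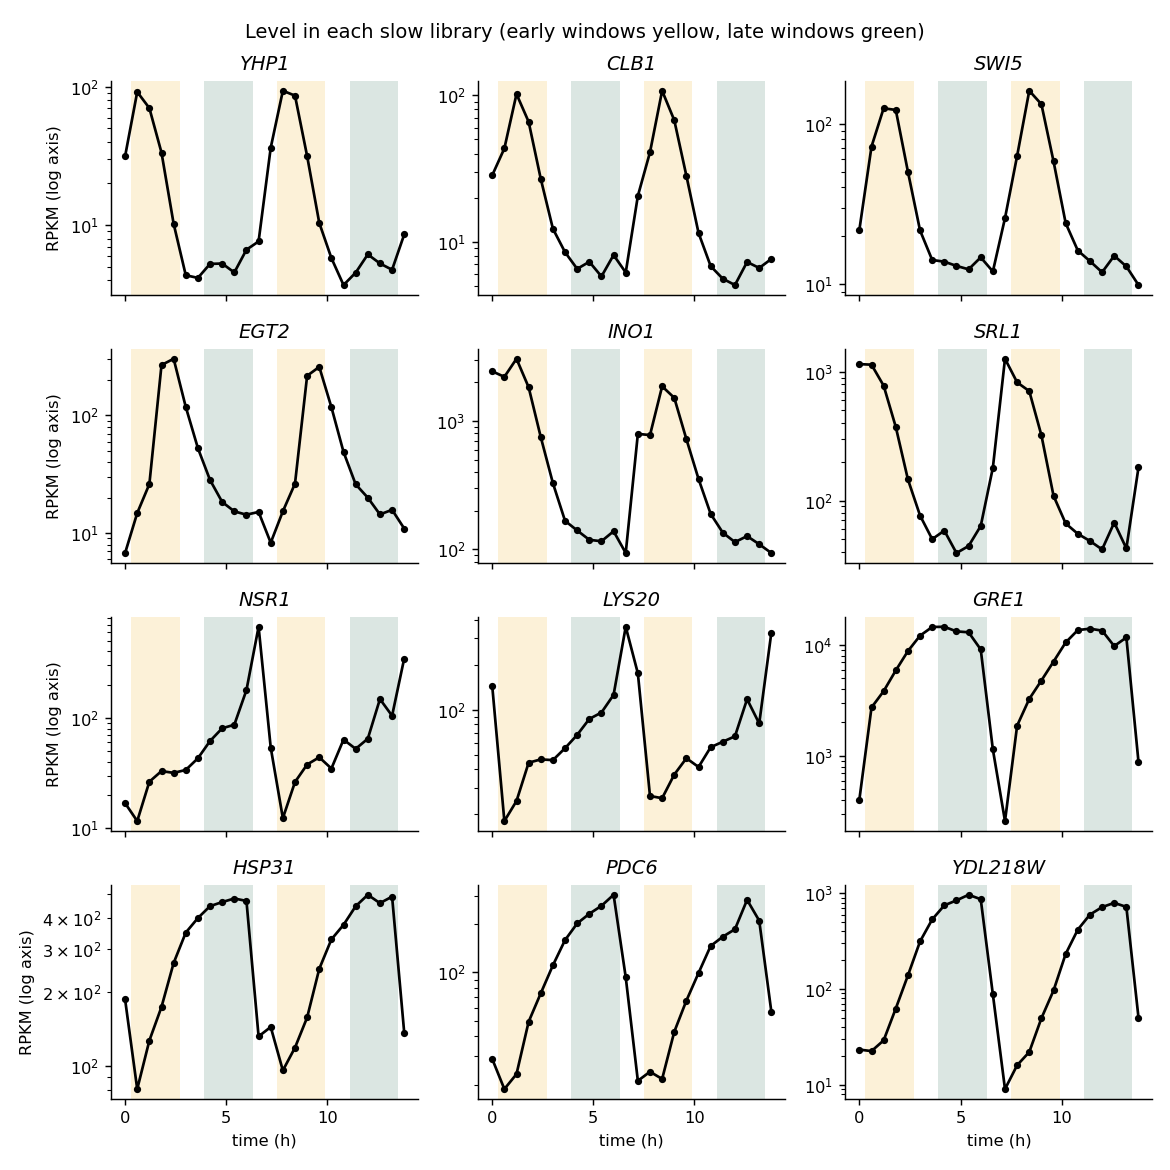
RPKM on a log axis against time in hours for 12 genes in the 24 slow libraries, 1 point per library, with the early windows in yellow and the late windows in green. YHP1 peaks first within the early windows, then CLB1 and SWI5 together at time point 3, then EGT2; INO1 also peaks at time point 3 and SRL1 declines through the windows, NSR1 and LYS20 climb in the late windows toward the burst, and GRE1, HSP31, PDC6 and YDL218W are highest inside the late windows and lower at the burst.

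The early set also held 4 genes of inositol and phospholipid synthesis and 5 of cell wall mannoproteins. INO1, the inositol-3-phosphate synthase at the head of inositol synthesis, had the lowest difference of all genes tested, -3.48 ± 0.26. It was at 2210, 3059, 1834 and 749 RPKM at time points 2 to 5, at 778, 1865, 1517 and 722 RPKM at time points 14 to 17, and at 110 to 140 RPKM late. ITR1, the myo-inositol transporter, ran from 487 to 1127 RPKM early (median 793) and from 206 to 254 RPKM late (median 222), a difference of -1.77 ± 0.15. With the phospholipid genes OPI3 (-1.08) and PSD1 (-1.02), 4 of 18 genes of inositol and phospholipid synthesis were lower late and 0 higher, with a list median of -0.24. For both INO1 and ITR1 every early library was above every late one.

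Cell wall mannoproteins gave 5 lower and 1 higher of 25, with a median of -0.30. SRL1 was at 109 to 1132 RPKM early (median 539) and 39.1 to 67.4 RPKM late (median 46.4), a difference of -3.06 ± 0.41. It shares 296 bases on the same strand with YOR248W (-3.09), so the reads of these 2 cannot be told apart. CCW12, an abundant wall protein, was at 3157 to 8595 RPKM early and 1216 to 1846 RPKM late (-1.93 ± 0.17). YDR133C, with no entry in the reference gene table, was at 1882 to 9642 RPKM early and 553 to 683 RPKM late (-2.88 ± 0.30). The exception was PIR3, an O-glycosylated wall protein, at 46.4 to 172 RPKM early (median 78.0) and 242 to 355 RPKM late (median 278), a difference of 1.80 ± 0.24. Each of SRL1, CCW12 and PIR3 had windows that did not overlap.

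Respiratory genes were lower late by less than 2-fold, apart from CYC1. Among 39 genes of the respiratory chain and ATP synthase, 28 were lower at any size and 1 higher, and the list median was -0.37. CYC1, the main cytochrome c, was at 230 to 903 RPKM early (median 612) and 116 to 206 RPKM late (median 146), a difference of -1.80 ± 0.27. All 71 mitochondrial ribosomal protein genes had a negative sign, against 2001 of all 5827 genes, with a median of -0.47 and 0 past 2-fold. Beta-oxidation, which breaks down fatty acids, had 17 of 22 genes lower at any size, 0 past 2-fold and a median of -0.52.

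Most genes higher late were those that the burst raises further. Of the 115, 75 had their maximum at time point 12 and 79 had a burst level above their late mean. A further count, 83 with their minimum at time point 2, was favoured by the selection, as that time point is in the early window. No share over all genes stands beside the 79 or the 83, so nothing is read from these 2 counts. Among all 5827 genes, 2071 had their maximum at time point 12. Ribosome biogenesis supplied 17 of the 75 and 17 of its 77 members, with 0 lower and a list median of 0.87; all 77 were higher late at any size. The list median, over both cycles, stepped from 11.4 RPKM at time point 2 to 24.3 at time point 3. It then stayed nearly flat, at 26.8, 28.1 and 26.6 RPKM at time points 4 to 6. Later it reached 34.7 RPKM at time point 8 and 52.8 at time point 11. Without time points 2 and 14, 3 of the 77 met the 2-fold criterion and the list median was 0.57.

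NSR1, the yeast nucleolin needed for pre-rRNA processing, was at 11.6, 26.4, 32.9 and 31.7 RPKM at time points 2 to 5 and 61.7, 80.4, 86.6 and 179 RPKM at time points 8 to 11. In the second cycle the values were 12.3, 26.2, 37.7 and 43.9 RPKM and then 52.4, 64.7, 148 and 104 RPKM, and the difference was 1.77 ± 0.30. No early library reached the lowest late one, and the burst mean was 507 RPKM. DBP3, an RNA helicase of the same pathway, had 6.92 to 36.0 RPKM early (median 22.7) and 42.7 to 77.4 RPKM late (median 52.2), a difference of 1.44 ± 0.29. Cytosolic ribosomal proteins moved less, with all 137 positive, against 3826 of all 5827 genes. Their median was 0.54, but 1 was past 2-fold. That gene, RPS26B, was at 111 to 295 RPKM early and 341 to 557 RPKM late (1.00 ± 0.20), and has a close copy, RPS26A, with which it may share reads.

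Most promoters of the 75 burst-bound genes held the letters of the PAC element, a short sequence known from ribosome biogenesis promoters. In the 300 bases before the start codon, read from the R64 reference genome (sacCer3), the letters GATGAG on either strand occurred in 51 of the 75 (68.0%). Among all tested genes the share was 1078 of 5827 (18.5%), and among the 1996 other genes with their maximum at time point 12 it was 26.2%. Of the 67 genes lower late, 7.46% had a match, and of the 38 with a maximum in time points 8 to 11, 18.4%. The match nearest to the start lay a median of 119 bases before it (quartiles 100 and 163), against 137 bases over all genes with a match. The 6 genes of the 75 with the largest differences and a match are shown as 60 bases on the gene's strand. They were picked for a match, so that the element and its surroundings can be read. Capitals mark GATGAG or its reverse complement CTCATC.
NSR1 (chrVII:807811-807870, minus strand): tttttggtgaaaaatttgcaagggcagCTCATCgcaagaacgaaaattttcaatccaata
RMT2 (chrIV:1394644-1394703, minus strand): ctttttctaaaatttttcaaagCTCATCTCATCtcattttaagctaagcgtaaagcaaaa
RFU1 (chrXII:281760-281819, minus strand): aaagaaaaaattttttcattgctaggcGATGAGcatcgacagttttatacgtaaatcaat
DBP3 (chrVII:361970-362029, minus strand): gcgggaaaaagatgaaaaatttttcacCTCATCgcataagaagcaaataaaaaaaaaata
AAH1 (chrXIV:359409-359468, plus strand): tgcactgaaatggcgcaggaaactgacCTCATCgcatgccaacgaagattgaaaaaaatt
RAS1 (chrXV:514971-515030, plus strand): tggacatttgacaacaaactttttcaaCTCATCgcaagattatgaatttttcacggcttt

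RMT2 is an arginine methyltransferase, AAH1 an adenine deaminase and RAS1 a small GTPase of nutrient signalling; RMT2 carries overlapping matches. A run of A followed by T lies near the element in several of them. Its letters AAATTTT, searched on both strands after these sequences were seen, occurred in 52 of the 75 promoters (69.3%), in 37.8% of the 1996 other genes with a maximum at time point 12 and in 24.8% of all tested genes. Neither share is a test of binding. Of the other elements searched, the Gcn4 letters TGACTC occurred in 9.33% of the 75 against 8.14% of all, and the MCB letters ACGCGT in 4.0% against 3.57%; CACGTG occurred in 0 of the 75 against 3.57% of all.

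A few amino acid and nitrogen genes were among those with a maximum at time point 12. LYS20, a homocitrate synthase, was at 18.1 to 47.5 RPKM early (median 31.7) and 61.2 to 126 RPKM late (median 84.0), a difference of 1.38 ± 0.21. LYS9, which makes saccharopine in the same lysine pathway, was at 52.6 RPKM at time point 2 and 76.9 to 94.8 RPKM in the other early libraries, and at 119 to 388 RPKM late (1.32 ± 0.22). Within the list of other amino acid synthesis, 4 of 49 were higher late by 2-fold, 0 lower, and the median was 0.31. MUP1, a methionine permease, was at 11.8 to 54.7 RPKM early and 66.8 to 155 RPKM late (1.57 ± 0.29), 1 of 33 in sulfur amino acid metabolism. MEP2, an ammonium permease, was the 1 called of 21 permeases (1.12 ± 0.28); its windows, 42.4 to 157 and 115 to 319 RPKM, overlapped. RHR2, a glycerol phosphatase, was at 44.1 to 217 RPKM early and 265 to 489 RPKM late (1.67 ± 0.28), and ERG3, a sterol desaturase, at 109 to 169 and 204 to 395 RPKM (1.09 ± 0.12).

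A second group of genes had its maximum inside the late windows. It comprised 38 of the 115, of which 34 had a burst level below their late mean and 24 a burst level below their early mean as well. The 38 were picked for a maximum before the burst, which favours a lower burst level, so nothing is read from these counts. The maxima of the 38 lay at time point 8 in 4, 9 in 8, 10 in 17 and 11 in 9. YDL218W, of unknown function, had the largest difference of all genes tested, 4.17 ± 0.36. It was at 22.4, 29.0, 62.5 and 138 RPKM at time points 2 to 5, at 314 and 533 RPKM at time points 6 and 7, and at 749, 844, 966 and 869 RPKM at time points 8 to 11. In the second cycle it went from 15.9 RPKM at time point 14 to 795 RPKM at time point 22, and its burst mean was 69.0 RPKM. The level thus rose in every step from time point 2 to time point 10 of the first cycle.

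PDC6, a minor pyruvate decarboxylase isozyme, was at 18.8 to 74.0 RPKM early (median 33.3) and 166 to 303 RPKM late (median 220), a difference of 2.64 ± 0.27. The major isozyme, PDC1, was at 623 to 1859 RPKM early (median 1022) and 2267 to 2654 RPKM late (median 2383), a difference of 1.23 ± 0.19. Outside the naming rule, CDC19, the main pyruvate kinase, gave 1.05; these 3 were the ones called among 26 glycolysis and fermentation genes, whose median was 0.30. HXT10, a hexose transporter, was at 10.1 to 29.9 and 43.2 to 49.5 RPKM (1.21 ± 0.18), the 1 of 15 hexose transport genes past the limit, in a list with a median of -0.002. In PDC6, PDC1 and HXT10 every late library was above every early one, while the windows of CDC19 overlapped.

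Few stress genes passed 2-fold. HSP31, a chaperone and glyoxalase of the DJ-1 family, was at 80.5 to 262 RPKM early (median 142) and 446 to 497 RPKM late (median 466.3), a difference of 1.67 ± 0.20. HSP30, a plasma membrane heat shock protein, was at 138 to 251 and 373 to 546 RPKM (1.39 ± 0.12) and had its maximum at time point 7. These were the 2 of 26 heat shock and chaperone genes past the limit, beside a list median of 0.34 and 17 higher at any size. HSP12 and HSP26, small heat shock proteins chosen after their values were seen, with early medians of 15795 and 15306 RPKM, differed by 0.06 ± 0.12 and 0.34 ± 0.10. Among 21 hydrophilins and desiccation genes, 3 passed: YDL218W, SPS100 and GRE1. GRE1, a hydrophilin, was at 1873 to 8789 RPKM early (median 4302) and 9097 to 14554 RPKM late (median 13105), a difference of 1.51 ± 0.25, with its maximum at time point 8. SPS100, a spore wall protein, was at 76.2 to 191 RPKM early and 264 to 363 RPKM late (1.40 ± 0.17).

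The stress response element, bound by Msn2 and Msn4, was searched for as AGGGG on either strand in the same 300 bases. It occurred in 17 of the 38 promoters (44.7%), in 26.5% of the 1079 other genes with a maximum in time points 8 to 11, in 22.5% of all tested genes and in 17.3% of the 75. A different word, AGGGAT, of the element bound by Gis1, occurred in 8 of the 38 (21.1%) and in 9.22% of all. The 6 of the 38 with the largest differences and an AGGGG match are shown as 60 bases on the gene's strand, so that the element can be set against the PAC promoters above; capitals mark AGGGG or its reverse complement CCCCT.
YDL218W (chrIV:66193-66252, plus strand): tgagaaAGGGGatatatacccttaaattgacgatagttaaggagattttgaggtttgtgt
YCL048W-A (chrIII:41213-41272, plus strand): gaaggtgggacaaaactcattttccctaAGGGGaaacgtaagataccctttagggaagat
HSP31 (chrIV:1502351-1502410, minus strand): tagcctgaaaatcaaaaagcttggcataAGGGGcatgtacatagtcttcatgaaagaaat
YOR186W (chrXV:682949-683008, plus strand): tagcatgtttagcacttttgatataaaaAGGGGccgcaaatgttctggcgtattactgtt
CIS1 (chrXII:822601-822660, minus strand): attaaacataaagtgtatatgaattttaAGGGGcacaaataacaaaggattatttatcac
SPS100 (chrVIII:379308-379367, minus strand): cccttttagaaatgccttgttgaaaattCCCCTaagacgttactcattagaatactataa

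The match lay 294 bases before the start in YDL218W, 222 in HSP31 and 140 in SPS100, which has a further match 169 bases before its start. PDC6, PIR3, GRE1 and HSP30 had none in this window. YCL048W-A, a short gene with no role given here, was at 92.5 to 830 RPKM early and 781 to 1274 RPKM late (1.76 ± 0.37), with overlapping windows. GFD2 was at 0.992 to 6.16 and 8.39 to 14.7 RPKM (1.69 ± 0.24), the lowest level in the higher window among the genes named for the largest differences.

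Other lists had 0 or 1 gene past 2-fold between the ends of the interval. Some of them, such as translation factors and DNA replication, peaked at the burst and not in the charging interval. Autophagy had 20 of 30 genes higher at any size, 0 past 2-fold and a median of 0.22. Antioxidant enzymes (23 genes, median 0.16), the iron regulon (22, median 0.18) and the phosphate regulon (20, median 0.15) each had 0 past 2-fold. Trehalose metabolism (10 genes, median -0.11), glycogen metabolism (14, median 0.03), vacuolar proteases (9, median 0.006), the glyoxylate cycle and gluconeogenesis (14, median -0.15) and the proteasome (33, median -0.10) also had 0; centring on the library median turned the medians of glycogen metabolism and vacuolar proteases to -0.086 and -0.11. Translation factors had 0 of 29 past 2-fold, 22 higher at any size and a median of 0.33. The tricarboxylic acid cycle had a median of -0.23 over 14 genes and 1 past the limit, fatty acid and sterol synthesis -0.07 over 34 and only ERG3, and sporulation 0.08 over 20 (-0.03 after centring) and only SPS100. DNA replication had 1 of 34, RNR2, a ribonucleotide reductase subunit at 229 to 608 RPKM early and 720 to 823 RPKM late, and a median of 0.07 (-0.05 after centring).

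**Figure D3:**
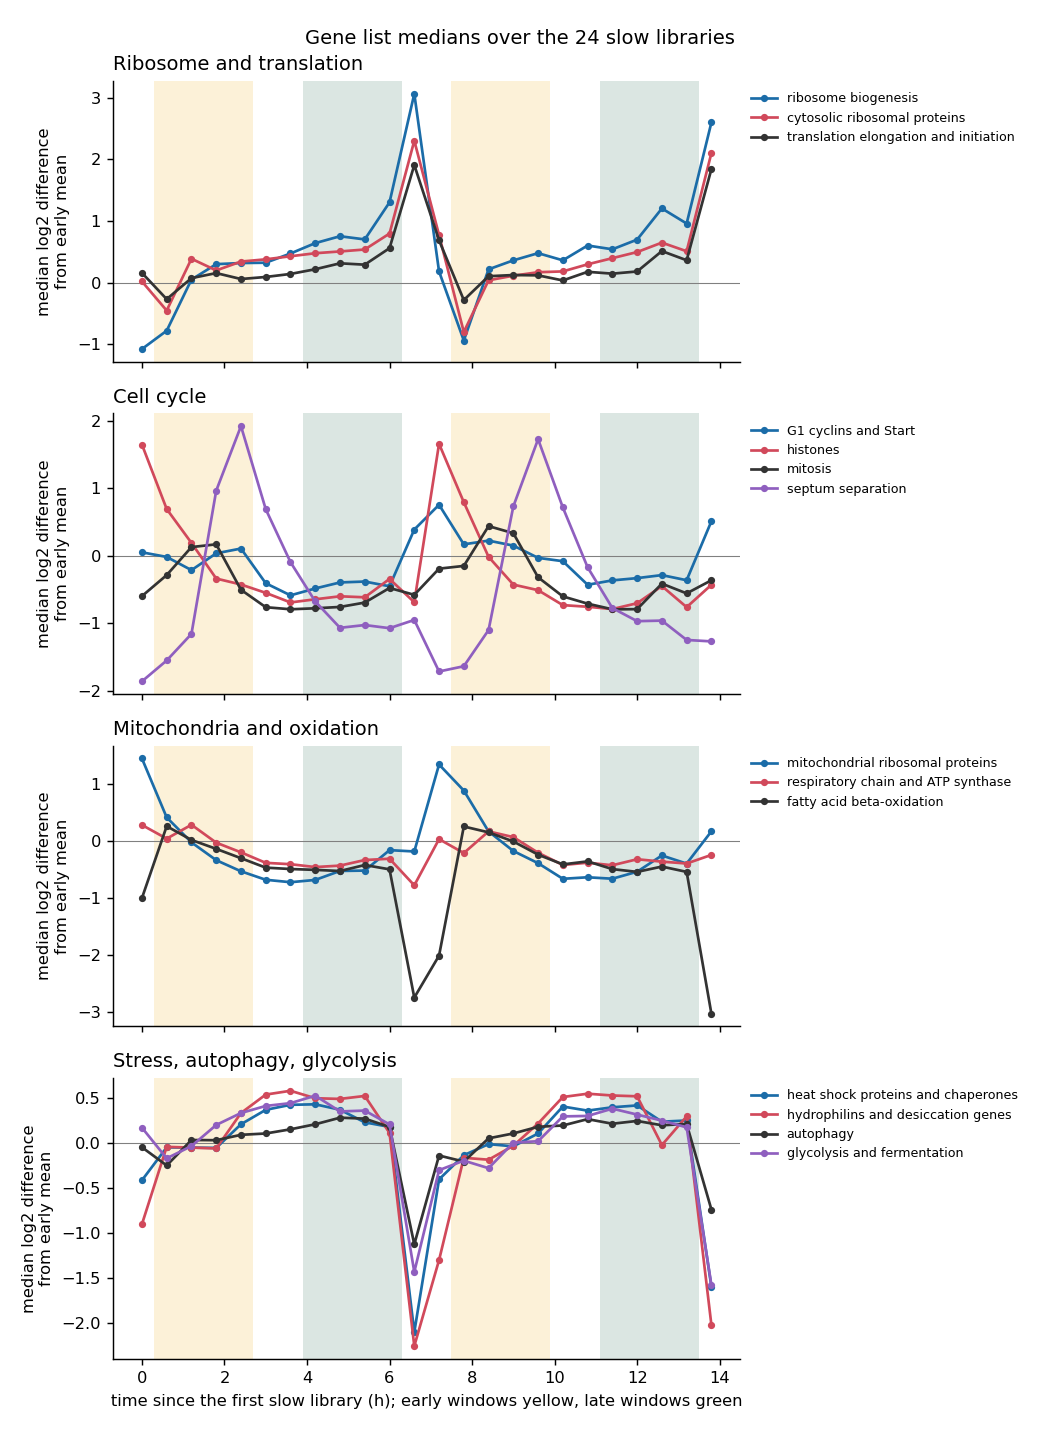
Median over the genes of each list of log2(RPKM + 1) minus the gene's early mean, against hours since the first slow library, 1 point per library, with early windows in yellow and late windows in green. Septum, mitosis and histone genes change within the early windows. Ribosome genes also step up there, between the first and second early library of each cycle, then climb more slowly and jump at the burst. For ribosome biogenesis that step ran from -0.78 to 0.05 in the first cycle and from -0.94 to 0.21 in the second. Stress, autophagy and glycolysis lists stay within a narrow band across both windows and drop at the burst.

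The fast culture gave libraries that the slow windows had not used. Its windows were matched by phase, 0.2 to 0.4 and 0.7 to 0.9 of a cycle after its burst at time points 8 and 18, which gave 6 early and 6 late libraries; they too were chosen with earlier results known. In limma's test with Benjamini-Hochberg adjustment, 73 genes (1.25%) were higher and 322 (5.53%) lower in the late fast window by at least 2-fold. The slow minus fast difference was positive for 296 genes (5.08%) and negative for 135 (2.32%), in a test whose slow side uses the windows that chose the genes. The same limit applies to every slow minus fast value below, and its adjusted p measures only spread between time points. With levels scaled to the control RNAs, the fast difference had a median of -0.11 over all genes in place of 0.04; no list direction given below flipped with it.

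Genes higher late in the slow culture mostly had the same sign in the fast culture. Among the 115, 99 had a positive fast difference and 12 were called higher and 2 lower, with a median of 1.01; among all genes 3185 of 5827 were positive. Part of this rested on fast time point 17, the last late library, where genes that peak at the burst stood at burst levels. The median level of the 75 was 31.4 RPKM in the fast library of time point 16, 166 RPKM at 17 and 143 RPKM at 18. Time point 18 was taken as the burst library, yet this median was higher at 17. Time point 17 was thus not a library before the burst for these genes, and its phase match does not hold for them. At time points 6, 7 and 8 the medians were 31.0, 59.1 and 207 RPKM. For NSR1 the library of time point 17 held 950 RPKM and the other late fast libraries 38.6 to 183 RPKM. Without it, in an alternative added after the data were seen, 90 of the 115 were positive with a median of 0.70, and without time points 7 and 17 it was 88 with a median of 0.53. In the same order, 11 and 9 of the 115 were called higher. Of the 38 with a late maximum, 32 were positive with all libraries, 33 without time point 17 and 31 without both. YDL218W rose in the fast culture from 2.42 to 10.2 RPKM early to 14.3 to 26.1 RPKM late, by 1.79 ± 0.27 (limma, adjusted p = 0.00035). Its slow difference was larger by 2.38 ± 0.50 (adjusted p = 0.00086), and its fast levels were far under its late slow median of 772 RPKM. GRE1 rose by 3.13 ± 0.30 (limma, adjusted p = 7.4e-06), more than in the slow culture (difference -1.62, adjusted p = 0.0047). HSP31 rose by 0.49 ± 0.13 (limma, adjusted p = 0.018), PIR3 by 0.94 ± 0.21 (0.0067) and HSP30 by 1.13 ± 0.35 (0.040). The rises of HSP31 and PIR3 were under 2-fold and were not called. Without time points 7 and 17 HSP31 gave 0.42, with an adjusted p no longer under 0.05 (limma, adjusted p = 0.053). PDC6 (0.71 ± 0.42, limma, adjusted p = 0.26) and NSR1 (2.11 ± 0.84, adjusted p = 0.10) had an adjusted p above 0.05. Without time point 17 they gave 0.37 and 1.46, and without both 0.06 and 1.08. For the lysine genes the fast values were near or under 0, at -0.19 ± 0.48 for LYS20 and -0.56 ± 0.42 for LYS9, and the cultures differed by 1.57 (limma, adjusted p = 0.022) and 1.88 (0.0037).

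Genes lower late in the slow culture had no common direction in the fast culture. Of the 67, 34 had a positive and 33 a negative fast difference, 11 were called higher and 11 lower, the median was 0.03, and 40 had a slow minus fast difference called negative. Mitotic genes were the clearest case. CLB1 rose in the late fast window by 0.96 ± 0.23 (limma, adjusted p = 0.010), SWI5 by 1.30 ± 0.23 (0.0013) and HOF1 by 1.72 ± 0.23 (0.00014). The fast rise of CLB1 was under 2-fold and was not called. The cultures differed by -3.83 for CLB1 (limma, adjusted p = 4.1e-08), by -3.96 for SWI5 and by -4.78 for HOF1 (both 3.1e-09). The slow side of each uses the windows that chose these genes, so the adjusted p is a description. Over the mitosis list, 4 of 25 genes were called higher and 1 lower in the fast culture, and 12 of 25 had a negative slow minus fast call; without time points 7 and 17 the fast calls were 8 and 0. INO1 rose by 2.17 ± 0.15 in the fast culture (limma, adjusted p = 2.9e-07), ITR1 by 0.67 ± 0.12 (0.0014), and both differed between cultures, by -5.65 (9.9e-12) and -2.44 (5.5e-09). The fast rise of ITR1 was under 2-fold and was not called.

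Some other early-high genes also fell in the late fast window. CLN1 fell by 1.33 ± 0.18 in the fast culture (limma, adjusted p = 0.00013), CYC1 by 0.98 ± 0.14 (0.00030), SRL1 by 1.12 ± 0.17 (0.00041), CCW12 by 0.50 ± 0.11 (0.0059), TUB1 by 0.99 ± 0.12 (5.2e-05) and HHF2 by 2.65 ± 0.19 (4.7e-07). Of these, CYC1, CCW12 and TUB1 fell by less than 2-fold and were not called. In the fast culture YHP1 (-0.03 ± 0.23, limma, adjusted p = 0.95), EGT2 (0.11 ± 0.41, 0.88) and AMN1 (-0.16 ± 0.31, 0.76) had an adjusted p above 0.05. Of the 10 histone genes, 7 were called lower in the fast culture and 7 had a positive slow minus fast call, and of the 71 mitochondrial ribosomal protein genes 68 were called lower, with a median of -1.55, and 48 had a positive call. Without time points 7 and 17 the histone counts were 6 and 4. Beta-oxidation had a fast median of 1.06 with 0 called and 11 of 22 negative slow minus fast calls; scaled to the control RNAs, 10 were called higher and 7 had a negative call.

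**Figure D4:**
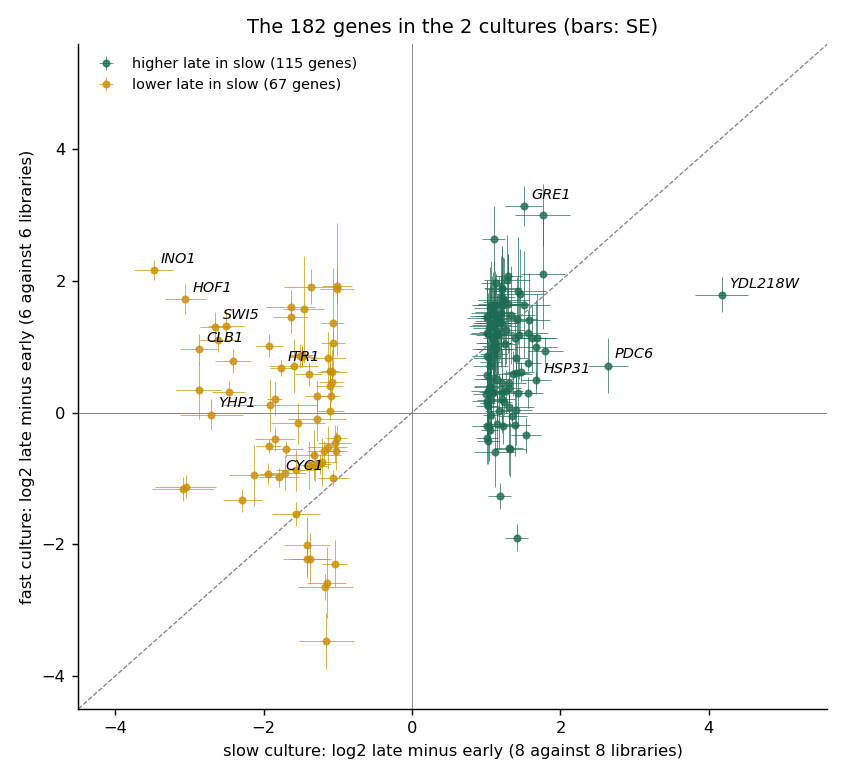
Late minus early log2 difference in the slow culture (x axis, 8 against 8 libraries) and at matched phase in the fast culture (y axis, 6 against 6 libraries) for the 115 genes higher and 67 genes lower late in the slow culture, with SE bars and a dashed line of equal differences. The 115 lie mostly above 0 on the fast axis (99 genes), whereas the 67 are split between 34 above and 33 below, with INO1, HOF1, SWI5 and CLB1 among those above.

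The largest contrasts between the cultures included genes that differed by less than 2-fold in the slow one. The genes named here were picked for the size of that contrast, so their adjusted p values are a description. MFA1, which encodes the a-factor mating pheromone, gave 0.72 ± 0.11 in the slow culture and -2.29 ± 0.35 in the fast culture, a difference of 3.00 (limma, adjusted p = 5.5e-07). HO, the mating-type endonuclease, gave 0.62 ± 0.22 and -2.15 ± 0.64 (difference 2.77, limma adjusted p = 0.0022), and YNR014W, of unknown function, 1.41 ± 0.16 and -1.90 ± 0.20 (3.31, 1.7e-09). SNZ3, of a vitamin B6 synthesis family with close copies that may share reads, gave 0.39 ± 0.12 and -2.52 ± 0.38 (2.91, 2.8e-06); its slow windows overlapped, at 4.29 to 7.15 and 5.36 to 10.4 RPKM. In the mating pheromone list, 10 of 21 genes had a positive slow minus fast call, 0 a negative one, and 5 were called lower in the fast culture (8 without fast time point 17); in DNA replication the counts were 12 of 34, 0 and 9.

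Measured in minutes from the burst and not as a share of the cycle, some of these groups peaked at like times in both cultures. The slow early windows lay 72 to 180 min and the late windows 288 to 396 min after the burst, in a cycle of 432 min, and the fast windows 26 to 52 min and 91 to 117 min, in a cycle of 130 min. Mitosis genes had their maximum a median of 108 min after the burst in the slow culture and 91 min in the fast culture, which is 0.25 of the slow and 0.7 of the fast cycle. For beta-oxidation the medians were 72 and 65 min, and for mitochondrial ribosomal proteins 36 and 26 min. Septum genes peaked at 180 min in the slow culture and at or just before the next burst, about 130 min on, in the fast one. Heat shock genes (216 and 65 min), hydrophilins (252 and 65 min) and autophagy (324 and 104 min) differed more in minutes, and lay at 0.5, 0.58 and 0.75 of the slow cycle and 0.5, 0.5 and 0.8 of the fast cycle. Over all tested genes the medians were 36 and 39 min. Sampling steps of 36 and 13 min limit these times, which are a description of 1 series per culture.

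**Figure D5:**
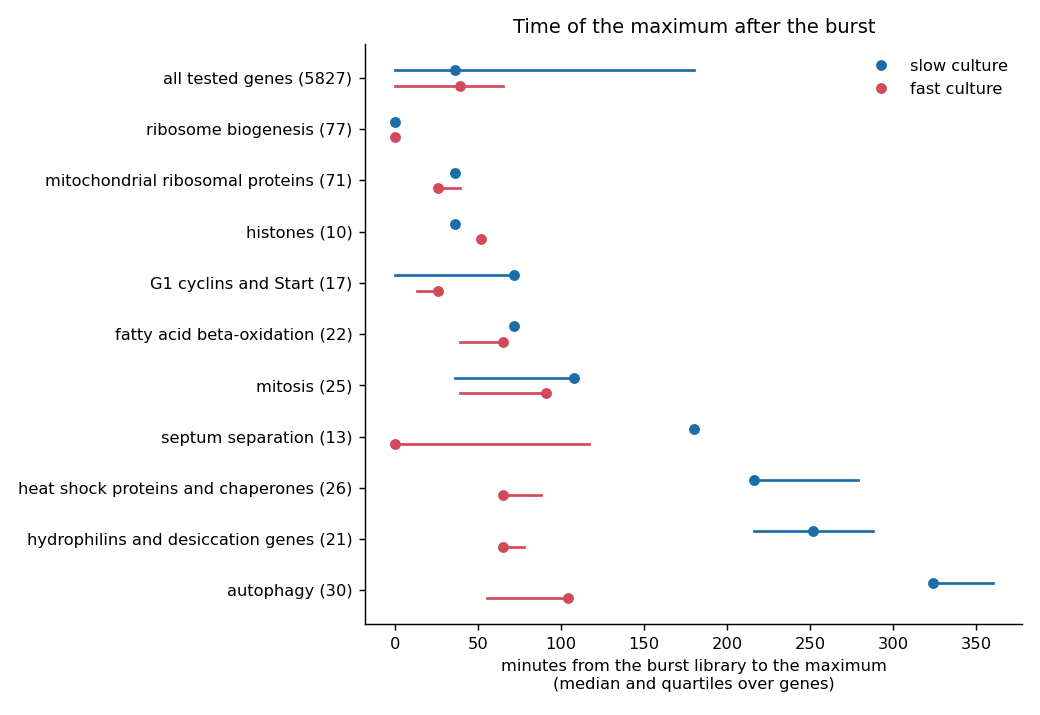
Minutes from the burst library to the maximum of the mean cycle, as the median (point) and quartiles (line) over the genes of each list, with the number of genes in brackets, in the slow (blue) and fast (red) cultures. Mitosis (108 and 91 min) and beta-oxidation (72 and 65 min) are close, while heat shock (216 and 65 min) and autophagy (324 and 104 min) are far apart; a value of 0 in the fast culture is also a whole cycle of 130 min.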

How the data were processed

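The deposited table gives RPKM per gene, computed by the authors; per the submitters' processing notes, FastQC 0.10.1, TopHat2 2.0.10 and HOMER were used, with the sacCer3 build. Of its 6784 rows, 92 control RNAs were left out of the tests. Gene positions in the table equal those of the R64 reference for 6000 of 6008 matched genes (99.87%). The sources used here do not say how reads that map to more than 1 place were treated, nor to which of the random RNA extraction groups a library belonged, so near-identical copies (MAL12 and MAL32, RPS26A and RPS26B, the histone pairs, the SNZ genes) are uncertain. Values were taken as log2(RPKM + 1), for genes that averaged 1 RPKM or more in these 16 libraries, and fitted with limma 3.58.1 in R 4.3.3 without a block; a fold change on this scale understates that of low genes. A call is a Benjamini-Hochberg adjusted p under 0.05 and at least 2-fold. The windows, lists, motifs and fast windows were chosen with earlier results of these data known. Named genes are the 8 with the largest difference each way (mean of at least 10 RPKM in the higher window, same sign in both cycles), the 2 largest called members of each list, ACT1, and the 4 with the largest slow minus fast difference each way. The limma step was tested on simulated data. Promoters were read from the R64 genome by the table's coordinates; 99.93% of the genes begin with ATG there. The maximum of a gene is that of the mean of its 2 cycles.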

Additional observations from a re-analysis of the deposited data

Results flagged for a closer look

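In the early windows, LYS9 at time point 2 stood apart from the other 7 libraries, at 52.6 RPKM; 86 groups were looked at in this way, and chance alone flags about 1 in 20.

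The late minus early difference differed between the cultures for 23 of the 43 named genes (limma interaction, adjusted p under 0.05 and at least 2-fold). On the log2 scale, slow minus fast, it was higher in the slow culture for YDL218W (2.38), PDC6 (1.93), HSP31 (1.18), PDC1 (1.43), HHF2 (1.48), LYS20 (1.57), LYS9 (1.88), MEP2 (1.71), YNR014W (3.31), MFA1 (3.00), SNZ3 (2.91) and HO (2.77). It was lower for INO1 (-5.65), YOR248W (-1.93), HOF1 (-4.78), SRL1 (-1.93), YDR133C (-3.21), CLB1 (-3.83), YHP1 (-2.68), SWI5 (-3.96), ITR1 (-2.44), GRE1 (-1.62) and CCW12 (-1.43). The slow side of each uses the windows that chose the gene. Without fast time points 7 and 17, HHF2 gave 1.26 and was no longer called (limma interaction, adjusted p = 0.081). In that alternative RHR2 (1.59), GFD2 (1.42) and CLN1 (-1.12) met the criteria.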

How the results depend on the processing

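No called named gene changed sign under any alternative run. The balance of higher to lower slow genes did turn: it was 115 to 67, and 71 to 89 after centring on the library median, 49 to 70 without time points 2 and 14, and even in the second cycle alone. The counts of 115 genes higher and 67 lower late moved by more than 1.5 times as follows: 1950 and 783 with no minimum fold, 61 higher with a pseudocount of 5 RPKM, 71 higher after centring on the library median, 43 and 43 in the second cycle alone, and 49 higher without time points 2 and 14 (49 of them shared with the 115). Leaving out 1 library gave 72 to 152 genes higher and 63 to 79 lower; without time point 2 the higher count was 72 and without time point 14 it was 75. Among named genes MEP2, RNR2, TUB1, RPS26B and HHF2 each fell below 2-fold when some 1 library was left out; without time points 2 and 14 they stood at 0.92, 0.75, -0.79, 0.71 and -0.63, and HXT10 at 0.96. With the burst interval as a replicate block the slow counts were 115 and 67, as without it; the numbers of the 2 groups mark position in the series and share no culture of their own. In the fast culture the 73 genes higher became 114 with the replicate block, 172 with control RNA scaling and 111 with inner windows, and stood at 86 without fast time point 17 and 74 without fast time points 7 and 17; the 135 negative slow minus fast calls became 74 with control RNA scaling. Of the values of slow named genes under the alternatives, not counting single libraries left out, 597 kept their side of the threshold and 44 lost it; of the fast ones 276 kept it, 12 gained and 9 lost it. The spread here is between time points of 1 culture, and RPKM cannot tell less RNA of a gene from more of the rest. The cause of these changes was not tested.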
